A study of Mus musculus with 4 samples.

Results

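The genes described here make cholesterol and fatty acids or control their supply. They are 35 genes, taken by symbol from the 19044 gene symbols of the count table, and all 35 are in it. They comprise 7 genes of the mevalonate pathway, 11 of the sterol branch, 4 of SREBP control, 10 of fatty acid synthesis and desaturation and 3 of sterol efflux. Of these, 32 had a mean of at least 5 CPM (counts per 1000000) over the libraries, before scaling for library composition, and were tested among 9680 genes. The CPM values quoted below are scaled for library composition. The other 3, Fdps, Scd1 and Fads2, fell below that minimum. Messenger RNA was sequenced from Treg cells, the Foxp3-positive CD4 T cells that hold immune responses in check, of mouse spleen and peripheral lymph nodes, with no treatment. The KO-labelled groups came from Ripk1 fl/fl Foxp3-YFP-Cre mice, in which Cre made in Foxp3-expressing cells cuts the floxed part of Ripk1. The WT groups came from Foxp3-YFP-Cre mice, so the Cre and reporter allele is common to all groups. Each genotype gave 1 aTreg and 1 rTreg library, 4 libraries in all, and the labels do not spell out a and r, which in this field stand for activated and resting. The sources used here do not give age, the number of mice or the sort gates.

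Ripk1 (GRCm38 chromosome 13) was at 80.8 and 84.7 CPM in KO-labelled aTreg and rTreg, against 77.5 and 83.6 CPM in WT aTreg and rTreg, with no call by edgeR (adjusted p = 0.658). The count over the whole gene thus gave no sign of the deletion, the sources do not name the floxed exons, and the libraries are called KO-labelled wherever a direction is drawn from them. Xist, the RNA of the inactive X chromosome, was at 0.213 and 0.284 CPM in KO-labelled aTreg and rTreg, against 338 and 299 CPM in WT aTreg and rTreg. Summed over 4 Y-linked genes, the level was 273 and 307 CPM in KO-labelled aTreg and rTreg, against 216 and 259.6 CPM in WT aTreg and rTreg. Both WT libraries thus held Xist together with Y-linked transcripts, as a pool of female and male cells would, while the KO-labelled libraries held almost no Xist, so that genotype and the sex of the cells cannot be told apart in any comparison of genotypes here. There is 1 library per group, and the p-values measure the spread between these libraries only.

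Cholesterol is built from acetyl-CoA through the mevalonate pathway to farnesyl diphosphate, then through squalene and lanosterol along the sterol branch. When membranes of the endoplasmic reticulum run low in sterol, the protein SCAP carries the SREBP transcription factors to the Golgi, where they are cut and released to switch on most of these enzymes. INSIG proteins hold SCAP back when sterol is plentiful. Oxysterols activate the LXR receptors, which switch on the export pumps ABCA1 and ABCG1. In T cells, activation and growth are known to draw on both lipid synthesis routes, and mevalonate metabolism is known to bear on Treg cell function.

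Depth ran from 17588754 to 20868319 counts per library. The 8 Treg markers checked summed to 3977 to 4060 CPM in the KO-labelled libraries and 3562 to 3945 CPM in WT. Summed B cell markers lay at 17.5 to 22.01 CPM in the KO-labelled libraries and 13.9 to 24.5 CPM in WT, with Ms4a1 at 0 counts in 1 library, and myeloid and dendritic markers at 17.2 to 19.4 CPM in the KO-labelled libraries and 14.1 to 14.3 CPM in WT, with Flt3 and Itgax at 0 counts in at least 1 library. The 4 measured CD8 T cell and NK markers lay at 17 to 20.2 CPM in the KO-labelled libraries and 10.7 to 12.7 CPM in WT, and the 5 erythroid and platelet markers at 10.9 to 13.1 CPM in the KO-labelled libraries and 0.858 to 1.75 CPM in WT. The 5 stromal markers lay at 169 to 223 CPM in the KO-labelled libraries and 154 to 229 CPM in WT, nearly all of it Pecam1 (166 and 222 CPM in KO-labelled aTreg and rTreg, 149 and 227 CPM in WT aTreg and rTreg). Eomes differed most among the CD8 T cell and NK markers. It was at 5.97 and 6.98 CPM in KO-labelled aTreg and rTreg, against 0.58 and 1.57 CPM in WT aTreg and rTreg. Cd8b1 was at 8.85 and 12.15 CPM in KO-labelled aTreg and rTreg, against 7.72 and 10.05 CPM in WT aTreg and rTreg. The sums for CD8 T and NK cells, myeloid cells and red cells and platelets were thus higher in both KO-labelled libraries, at low levels. Klrb1c and Csf1r, however, were lower there within each state. The part of these sums in the results was not tested. A list of 15 cell cycle genes summed to 2500 and 2697 CPM in KO-labelled aTreg and rTreg, against 838 and 1157 CPM in WT aTreg and rTreg, and all 15 rose. The log2 ratio of KO-labelled over WT was 2.57 in aTreg and 1.77 in rTreg for Birc5. On the same log2 scale it was 2.53 in aTreg and 1.66 in rTreg for Ccnb2, and 2.29 in aTreg and 1.80 in rTreg for Cdc6. Proliferation genes and lipid synthesis genes were therefore higher in the same libraries, and the part of proliferation in the results was not tested. In bulk samples, fewer cells of a type and less RNA per cell cannot be told apart.

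The first comparison asks what differed between KO-labelled and WT Treg cells. Most genes of lipid synthesis had more mRNA in both KO-labelled libraries than in WT, by less than 2-fold for all tested genes but Idi1 in both states and Hsd17b7 in aTreg. By edgeR's additive test over the 4 libraries, with state as a term, 17 of the 32 tested genes rose and 2, Tm7sf2 and Abca1, fell, where 24.4% of all tested genes rose and 22.8% fell. Both KO-labelled libraries lay above both WT libraries for 23 of the 32 genes and below both for 2, beside 33.2% and 31.9% of all tested genes. The median log2 ratio of KO-labelled over WT was 0.36 in aTreg and 0.25 in rTreg over the 32 genes, against 0.0011 in aTreg and 0.0075 in rTreg over all tested genes. At least 1.5-fold higher in the KO-labelled library were 10 genes in aTreg (9.77% of all tested genes) and 8 in rTreg (8.74%). At least 1.5-fold lower was 1 gene, Abca1, in aTreg (7.98% of all tested genes) and none in rTreg (5.92%). When edgeR was run with genotype alone, so that aTreg and rTreg served as replicates of each other, 11 of the 17 rises and neither fall were called, where 9.6% of all tested genes rose and 7.2% fell in that fit. Those 11 were Hmgcs1, Idi1, Fdft1, Cyp51, Msmo1, Nsdhl, Ebp, Stard4, Scd2, Elovl6 and Fads1. DESeq2 with the same terms as the additive fit called 14 rises and no fall (1, Abca1, at an unadjusted p under 0.05), beside 14.2% of all tested genes that rose and 12% that fell, and lost Tm7sf2, Sc5d, Srebf1, Acaca and Abca1.

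**Figure D1:**
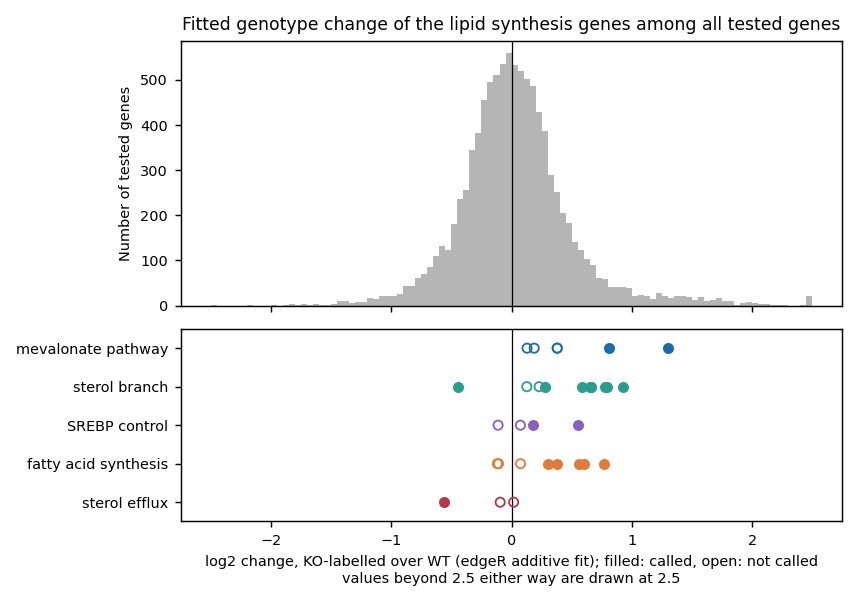
Upper panel: number of tested genes by fitted log2 change, KO-labelled over WT, from edgeR's additive fit (values beyond 2.5 drawn at 2.5). Lower panel: the 32 tested lipid genes by role on the same axis, filled where called and open where not; the sterol branch holds 8 filled points to the right of 0 and 1, Tm7sf2, to the left.

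Mevalonate pathway genes were led by Idi1 and Hmgcs1, while the kinases between them differed less. Idi1, the isomerase that readies isoprene units for joining (GRCm38 chromosome 13, 8885501 to 8892451, plus strand), was at 17.1 and 23.3 CPM in KO-labelled aTreg and rTreg, against 6.896 and 9.48 CPM in WT aTreg and rTreg. Both KO-labelled libraries were above both WT libraries, and in each genotype aTreg was the lower. The log2 ratio of KO-labelled over WT was 1.29 [1.02 to 1.60] in aTreg and 1.29 [1.05 to 1.55] in rTreg, where brackets give the 95% counting interval, and the gene rose 2.46-fold (log2 change 1.30, SE 0.151, edgeR adjusted p = 1.93e-05), with 2.26% of tested genes above it. Hmgcs1, the cytosolic synthase that commits acetyl units to the pathway (GRCm38 chromosome 13, 119690379 to 119708260, plus strand), was at 39.7 and 44.2 CPM in KO-labelled aTreg and rTreg, against 21.2 and 26.7 CPM in WT aTreg and rTreg. The groups did not overlap, and the gene rose 1.76-fold (log2 change 0.81, SE 0.104, edgeR adjusted p = 4.09e-05). Acat2, the cytosolic thiolase of the first step, had ratios of 0.20 [−0.044 to 0.45] in aTreg and 0.55 [0.32 to 0.79] in rTreg and missed the threshold narrowly (edgeR adjusted p = 0.0557). Pmvk, phosphomevalonate kinase, also missed it, with ratios of 0.42 in aTreg and 0.33 in rTreg (edgeR adjusted p = 0.0534). Mvk, mevalonate kinase, had ratios of 0.26 in aTreg and 0.12 in rTreg (edgeR adjusted p = 0.295), and the decarboxylase gene Mvd 0.25 in aTreg and 0.0033 in rTreg (edgeR adjusted p = 0.279). Of the 6 tested genes, 2 rose and none fell, beside 24.4% and 22.8% of all tested genes, so that the rises are near that share. The ratio was above 0 in both states for all 6, as it was for 4050 of all 9680 tested genes. The interval of Mvd in rTreg (−0.14 to 0.14) includes 0.

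Fdps, which joins the isoprene units to farnesyl diphosphate, had only 19 and 29 counts in KO-labelled aTreg and rTreg, against 25 and 22 counts in WT aTreg and rTreg. Its log2 ratio was −0.26 [−1.20 to 0.66] in aTreg and 0.65 [−0.20 to 1.52] in rTreg, so no difference was detectable at this depth. Of the 50-base words of its GENCODE M21 transcripts, 64.1% also occur in transcripts of other genes, among them the processed pseudogenes Gm3571, Gm5873 and Gm7979 and the overlapping locus Gm43738. Gm3571 itself was at 3.25 and 3.804 CPM in KO-labelled aTreg and rTreg, against 1.51 and 2.097 CPM in WT aTreg and rTreg, with log2 ratios of 1.11 [0.46 to 1.78] in aTreg and 0.86 [0.29 to 1.44] in rTreg. The pseudogene thus had more counts than the gene that it copies, and was higher in both KO-labelled libraries. No source used here says how the authors counted reads that match several places, so the level of Fdps is uncertain. The same holds in part for Acaca (49.1% of words shared, with the processed pseudogene Gm5182), Acat2 (40.7%, mainly with its neighbour Acat3), Idi1 (28.6%) and Fdft1 (30.7%, mainly with the overlapping gene Ctsb).

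In the sterol branch 8 of 11 genes rose and 1 fell, beside 24.4% and 22.8% of all tested genes. The median log2 ratio of the branch was 0.69 in aTreg and 0.55 in rTreg. Summed over mevalonate and sterol genes, the level was 576 and 594 CPM in KO-labelled aTreg and rTreg, against 389.8 and 446 CPM in WT aTreg and rTreg. Cyp51, the lanosterol demethylase and a textbook SREBP target (GRCm38 chromosome 5, 4081145 to 4104746, minus strand, overlapping Akap9 on the opposite strand), was at 58.8 and 58.8 CPM in KO-labelled aTreg and rTreg, against 29.5 and 38.9 CPM in WT aTreg and rTreg. The KO-labelled libraries were level with each other, and both lay above WT, where aTreg was the lower. It rose 1.73-fold (log2 change 0.79, SE 0.102, edgeR adjusted p = 4.31e-05), whereas Akap9 had ratios of −0.15 in aTreg and −0.093 in rTreg. Hsd17b7, a keto-reductase that acts in the removal of sterol methyl groups, was at 11.9 and 13.6 CPM in KO-labelled aTreg and rTreg, against 5.39 and 8.15 CPM in WT aTreg and rTreg. It had the largest change of the branch, 1.903-fold (log2 change 0.93, SE 0.187, edgeR adjusted p = 0.00131), but from the lowest counts, 111 in WT aTreg, and was not called with genotype alone (edgeR adjusted p = 0.0674).

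Nsdhl and Ebp, which act after lanosterol, lie on the X chromosome (GRCm38 chromosome X, 72918557 to 72958514, plus strand, and chromosome X, 8185329 to 8193512, minus strand). Nsdhl, a dehydrogenase of the demethylation complex, was at 26.8 and 27.2 CPM in KO-labelled aTreg and rTreg, against 14.9 and 16.7 CPM in WT aTreg and rTreg, and Ebp, a sterol isomerase, was at 92.2 and 84.02 CPM in KO-labelled aTreg and rTreg, against 54.9 and 56.4 CPM in WT aTreg and rTreg. In both genes the groups did not overlap, and within a genotype the states differed by less than the genotypes did. Nsdhl rose 1.71-fold (log2 change 0.78, SE 0.123, edgeR adjusted p = 2.28e-04) and Ebp 1.58-fold (log2 change 0.66, SE 0.0731, edgeR adjusted p = 1.28e-05). Both are thus higher in the libraries where Xist was near 0.

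Sqle, squalene epoxidase, a slow step of the branch, was at 28.9 and 31.3 CPM in KO-labelled aTreg and rTreg, against 16.4 and 21.97 CPM in WT aTreg and rTreg. It rose 1.58-fold (log2 change 0.66, SE 0.121, edgeR adjusted p = 6.33e-04) and was not called with genotype alone (edgeR adjusted p = 0.0592). Msmo1, the oxidase of sterol methyl groups, was at 20.6 and 23.1 CPM in KO-labelled aTreg and rTreg, against 12.7 and 15.1 CPM in WT aTreg and rTreg and rose 1.57-fold (log2 change 0.65, SE 0.132, edgeR adjusted p = 0.00133). Fdft1, squalene synthase, was at 47.97 and 43.4 CPM in KO-labelled aTreg and rTreg, against 31.3 and 29.6 CPM in WT aTreg and rTreg. The groups did not overlap, and it rose 1.501-fold (log2 change 0.59, SE 0.0942, edgeR adjusted p = 2.53e-04), beside ratios of 0.25 in aTreg and 0.43 in rTreg for Ctsb, the protease gene that overlaps it on the opposite strand. Sc5d, a late desaturase, rose least of the 8, 1.21-fold, and its KO-labelled aTreg library (56.4 CPM) lay below WT rTreg (58.1 CPM) (log2 change 0.28, SE 0.0751, edgeR adjusted p = 0.00898). Lss, which closes the sterol rings, did not pass, with ratios of 0.068 in aTreg and 0.18 in rTreg (edgeR adjusted p = 0.425). Dhcr7, the reductase of the last step, did not pass either, with ratios of 0.35 in aTreg and 0.11 in rTreg (edgeR adjusted p = 0.0588).

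Tm7sf2, a sterol reductase that acts just after Cyp51, went the other way. It was at 10.5 and 12.4 CPM in KO-labelled aTreg and rTreg, against 13.02 and 18.4 CPM in WT aTreg and rTreg. Both KO-labelled libraries lay below both WT libraries, and it fell by 0.45 on the log2 scale (SE 0.155, edgeR adjusted p = 0.0307; adjusted p = 0.203 with genotype alone). It shares 19.5% of its 50-base words with Vps51, which overlaps it on the same strand and was at 51.4 and 50.8 CPM in KO-labelled aTreg and rTreg, against 59.9 and 58.9 CPM in WT aTreg and rTreg, with ratios of −0.22 in aTreg and −0.21 in rTreg. The part of Vps51 reads in the level of Tm7sf2 was not tested.

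**Figure D2:**
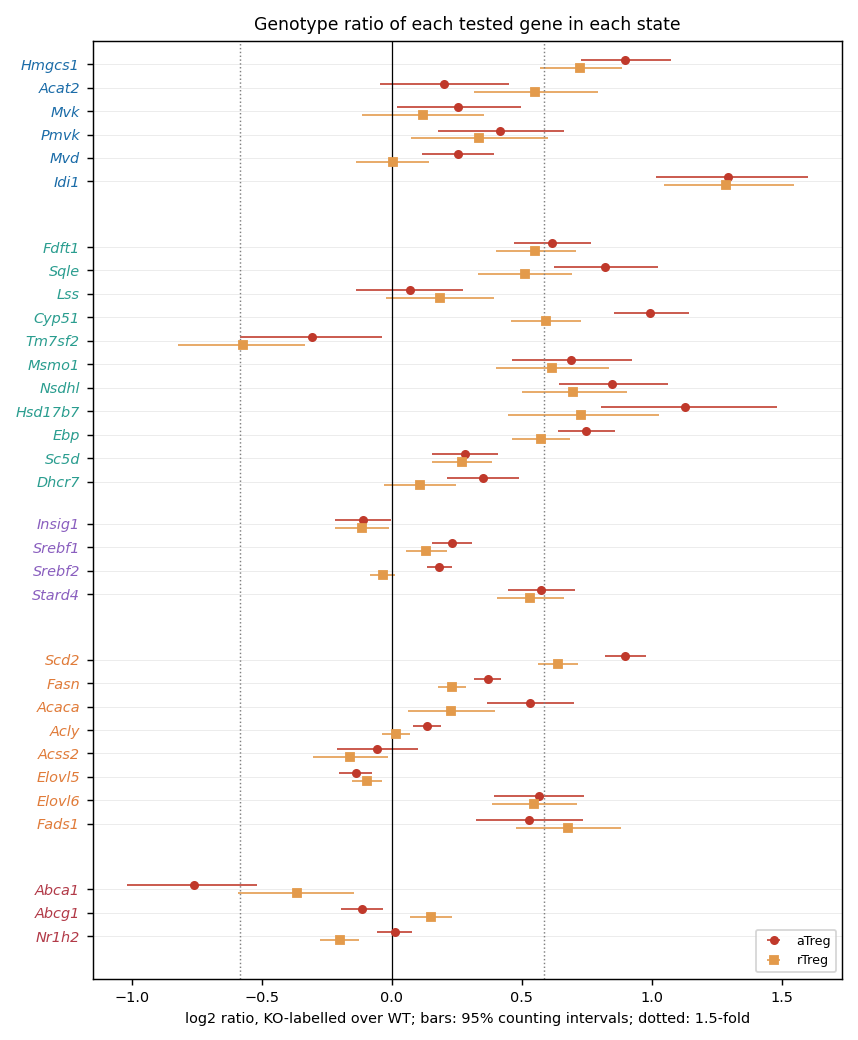
Log2 ratio of KO-labelled over WT for the 32 tested genes, in aTreg (circles) and rTreg (squares), with bars for 95% counting intervals and dotted lines at 1.5-fold; name colours mark the roles, from mevalonate genes at the top to sterol efflux at the bottom. Idi1 lies farthest to the right in both states, and Abca1 and Tm7sf2 lie to the left of 0 in both.

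The promoters in RefSeq (build GRCm38.p6, 250 bases before to 50 after the start) were searched on both strands for 4 motifs of the factors known to act on genes of these routes. Promoters were held for 27 of the 35 genes and for 7733 of the tested genes. The NF-Y box CCAAT, which SREBP promoters often carry, was in 21 of the 27 (77.8%), beside 43.1% of tested genes and 41.1% of all 27025 genes with a promoter. The Sp1 box GGGCGG was in 21 of the 27 (77.8%), beside 71.0% of tested genes and 38.2% of all genes. The E-box CACGTG was in 6 (22.2%), beside 12.6% of tested genes and 8.09% of all genes. The sterol regulatory element in the strict form TCACNCCAC was in 1, Hmgcs1, beside 1.34% of tested genes and 1.44% of all genes. Genes with several starts have more sequence in this search, each motif was counted whether or not it overlapped another, and a match is a description, not a site of binding.

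Shown are the promoters of 3 genes that rose, Hmgcs1 (chr13:119690101-119690400, plus strand), Idi1 (chr13:8885356-8885655, plus strand) and Cyp51 (chr5:4104648-4104947, minus strand), of Insig1 (chr5:28071162-28071461, plus strand), a known SREBP target that was not called, and of Abca1 (chr4:53159846-53160145, minus strand), which fell. They run 5′ to 3′ on the gene's strand, and capitals mark CCAAT on either strand and, in Hmgcs1, the sterol regulatory element, whose first base lies 137 bases before the start.

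Hmgcs1: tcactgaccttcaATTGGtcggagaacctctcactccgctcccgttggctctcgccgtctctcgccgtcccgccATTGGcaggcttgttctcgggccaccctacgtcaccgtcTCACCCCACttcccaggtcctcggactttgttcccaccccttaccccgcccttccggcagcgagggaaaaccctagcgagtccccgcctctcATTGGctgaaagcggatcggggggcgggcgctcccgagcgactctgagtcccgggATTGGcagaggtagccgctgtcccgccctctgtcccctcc
Idi1: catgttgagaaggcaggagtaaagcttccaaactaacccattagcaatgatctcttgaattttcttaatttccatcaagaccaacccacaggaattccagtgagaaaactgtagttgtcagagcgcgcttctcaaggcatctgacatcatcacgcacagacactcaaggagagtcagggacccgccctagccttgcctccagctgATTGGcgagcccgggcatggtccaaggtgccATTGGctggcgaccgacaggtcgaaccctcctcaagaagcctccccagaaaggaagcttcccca
Cyp51: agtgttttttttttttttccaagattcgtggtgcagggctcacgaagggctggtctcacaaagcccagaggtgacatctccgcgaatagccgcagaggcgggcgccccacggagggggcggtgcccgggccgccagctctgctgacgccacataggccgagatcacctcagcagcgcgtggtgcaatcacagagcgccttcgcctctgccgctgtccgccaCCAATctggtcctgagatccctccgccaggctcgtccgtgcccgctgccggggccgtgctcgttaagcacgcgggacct
Insig1: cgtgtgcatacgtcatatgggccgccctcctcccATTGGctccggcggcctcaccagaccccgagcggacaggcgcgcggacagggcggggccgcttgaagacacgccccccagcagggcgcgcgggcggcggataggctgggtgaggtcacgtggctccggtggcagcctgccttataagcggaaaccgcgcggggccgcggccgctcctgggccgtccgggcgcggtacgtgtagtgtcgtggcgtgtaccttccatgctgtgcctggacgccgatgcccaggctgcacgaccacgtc
Abca1: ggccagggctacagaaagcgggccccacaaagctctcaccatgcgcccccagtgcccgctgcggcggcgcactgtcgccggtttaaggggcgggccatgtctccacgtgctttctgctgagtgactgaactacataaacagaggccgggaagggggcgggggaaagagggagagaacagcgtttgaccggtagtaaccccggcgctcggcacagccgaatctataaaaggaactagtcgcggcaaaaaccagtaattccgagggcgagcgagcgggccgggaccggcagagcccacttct

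The Hmgcs1 window held 4 CCAAT boxes, the Idi1 window 2, those of Cyp51 and Insig1 1 each, and the Abca1 window none. CCAAT was in 10 of the 12 genes that rose and have a promoter in the table, and in 11 of the 15 other genes with one, among them Insig1, Srebf2 and Tm7sf2.

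The genes of SREBP control did not move as a group. Srebf2, which encodes the SREBP that mainly drives sterol genes, was at 397 and 363 CPM in KO-labelled aTreg and rTreg, against 349.9 and 372 CPM in WT aTreg and rTreg. KO-labelled aTreg was the highest of the 4 libraries and KO-labelled rTreg lay between the WT libraries, so that the ratio was 0.18 [0.14 to 0.23] in aTreg and −0.035 [−0.083 to 0.013] in rTreg, with no call (edgeR adjusted p = 0.431). Srebf1, which encodes the SREBPs of sterol and fatty acid genes, was at 155 and 145 CPM in KO-labelled aTreg and rTreg, against 132 and 132 CPM in WT aTreg and rTreg. It rose 1.13-fold (log2 change 0.18, SE 0.0657, edgeR adjusted p = 0.0368), a call that was lost with upper-quartile scaling, with DESeq2 (adjusted p = 0.276) and with genotype alone (edgeR adjusted p = 0.1696). Its gene overlaps Rai1 on the opposite strand, which had ratios of −0.35 in aTreg and −0.51 in rTreg.

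Insig1, the sterol-sensing brake on SCAP and itself a known SREBP target, was at 67.9 and 76.2 CPM in KO-labelled aTreg and rTreg, against 73.2 and 82.5 CPM in WT aTreg and rTreg. Within each state the KO-labelled library was the lower, while KO-labelled rTreg lay above WT aTreg. The ratio was −0.11 [−0.22 to −0.0017] in aTreg and −0.11 [−0.22 to −0.0098] in rTreg, and edgeR did not call it (adjusted p = 0.195), nor did DESeq2 (adjusted p = 0.583). Stard4, a soluble protein that carries sterol between membranes, was at 61.98 and 61.3 CPM in KO-labelled aTreg and rTreg, against 41.6 and 42.3 CPM in WT aTreg and rTreg. The groups did not overlap and the states were nearly equal within a genotype. It rose 1.47-fold (log2 change 0.55, SE 0.0797, edgeR adjusted p = 1.05e-04).

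Among fatty acid genes 5 of 8 tested rose and none fell, beside 24.4% and 22.8% of all tested genes. Their median log2 ratio was 0.45 in aTreg and 0.23 in rTreg. Scd2, the stearoyl-CoA desaturase that puts the first double bond into saturated chains (GRCm38 chromosome 19, 44293674 to 44306864, plus strand), was at 187 and 185 CPM in KO-labelled aTreg and rTreg, against 100.5 and 119 CPM in WT aTreg and rTreg. Both KO-labelled libraries lay well above both WT libraries, with ratios of 0.90 [0.82 to 0.98] in aTreg and 0.64 [0.56 to 0.71] in rTreg, and it rose 1.703-fold (log2 change 0.77, SE 0.0743, edgeR adjusted p = 4.52e-06). Its sister gene Scd1, the liver-type desaturase, had 9 and 8 counts in KO-labelled aTreg and rTreg, against 10 and 8 counts in WT aTreg and rTreg, so that Scd2 carried nearly all desaturase mRNA of the pair. Reads could be exchanged between close Scd copies, which was not tested. Of the 50-base words of Scd2, 4.01% occur in other transcripts, and Scd3 and Scd4 were at or below 1.29 CPM.

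Fads1, a desaturase of polyunsaturated chains, was at 24.2 and 27.02 CPM in KO-labelled aTreg and rTreg, against 16.8 and 16.9 CPM in WT aTreg and rTreg. It rose 1.52-fold (log2 change 0.61, SE 0.123, edgeR adjusted p = 0.00139), with no overlap of the groups. Its neighbour Fads2, which acts before it in the same route, had 17 and 20 counts in KO-labelled aTreg and rTreg, against 7 and 5 counts in WT aTreg and rTreg, a log2 ratio of 1.41 [0.071 to 2.93] in aTreg and 2.25 [0.80 to 4.02] in rTreg on counts, and was not tested. Elovl6, which lengthens saturated chains, was at 34.2 and 39.2 CPM in KO-labelled aTreg and rTreg, against 23.1 and 26.8 CPM in WT aTreg and rTreg. Again both KO-labelled libraries were the higher, and the gene rose 1.47-fold (log2 change 0.56, SE 0.103, edgeR adjusted p = 6.92e-04).

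Fasn, the fatty acid synthase, was at 351 and 314 CPM in KO-labelled aTreg and rTreg, against 272 and 268 CPM in WT aTreg and rTreg. It rose 1.23-fold (log2 change 0.30, SE 0.06902, edgeR adjusted p = 0.00323), a smaller step than that of Scd2, and was not called with genotype alone (edgeR adjusted p = 0.0759). Acaca, the carboxylase of the committed step, was at 36.3 and 32.98 CPM in KO-labelled aTreg and rTreg, against 25.1 and 28.2 CPM in WT aTreg and rTreg and rose 1.303-fold (log2 change 0.38, SE 0.111, edgeR adjusted p = 0.0132). That call was lost with DESeq2 (adjusted p = 0.146) and with genotype alone (edgeR adjusted p = 0.0874). Both genes had no overlap between genotypes.

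The suppliers of acetyl-CoA were not called. Acly, which makes it from citrate in the cytosol, had ratios of 0.14 in aTreg and 0.015 in rTreg (edgeR adjusted p = 0.385), and Acss2, which makes it from acetate, −0.055 in aTreg and −0.16 in rTreg (edgeR adjusted p = 0.368). Elovl5, which lengthens polyunsaturated chains, was at 206 and 250 CPM in KO-labelled aTreg and rTreg, against 227 and 267 CPM in WT aTreg and rTreg. Its ratios of −0.14 [−0.20 to −0.078] in aTreg and −0.097 [−0.15 to −0.039] in rTreg were on the lower side in both states, and it was not called (edgeR adjusted p = 0.159).

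Of the sterol efflux genes, Abca1 fell. Abca1, the pump that loads cholesterol onto apolipoproteins (GRCm38 chromosome 4, 53030787 to 53159895, minus strand), was at 10.8 and 15.6 CPM in KO-labelled aTreg and rTreg, against 18.4 and 20.1 CPM in WT aTreg and rTreg. KO-labelled aTreg was the lowest library, and both KO-labelled libraries lay below both WT libraries. The ratio was −0.76 [−1.02 to −0.52] in aTreg and −0.36 [−0.59 to −0.14] in rTreg, and the gene fell by 0.56 on the log2 scale (SE 0.149, edgeR adjusted p = 0.00787), a call lost with DESeq2 (adjusted p = 0.0822) and with genotype alone (edgeR adjusted p = 0.132). Abcg1, the pump that loads cholesterol onto formed lipoprotein particles, was at 121 and 136 CPM in KO-labelled aTreg and rTreg, against 131 and 123 CPM in WT aTreg and rTreg. Its ratio was −0.11 [−0.20 to −0.033] in aTreg and 0.15 [0.069 to 0.23] in rTreg, on opposite sides of 0, and the additive test did not call it (edgeR adjusted p = 0.864). Nr1h2, which encodes LXR-beta, had ratios of 0.011 [−0.057 to 0.078] in aTreg and −0.20 [−0.27 to −0.13] in rTreg and was not called (edgeR adjusted p = 0.295).

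**Figure D3:**
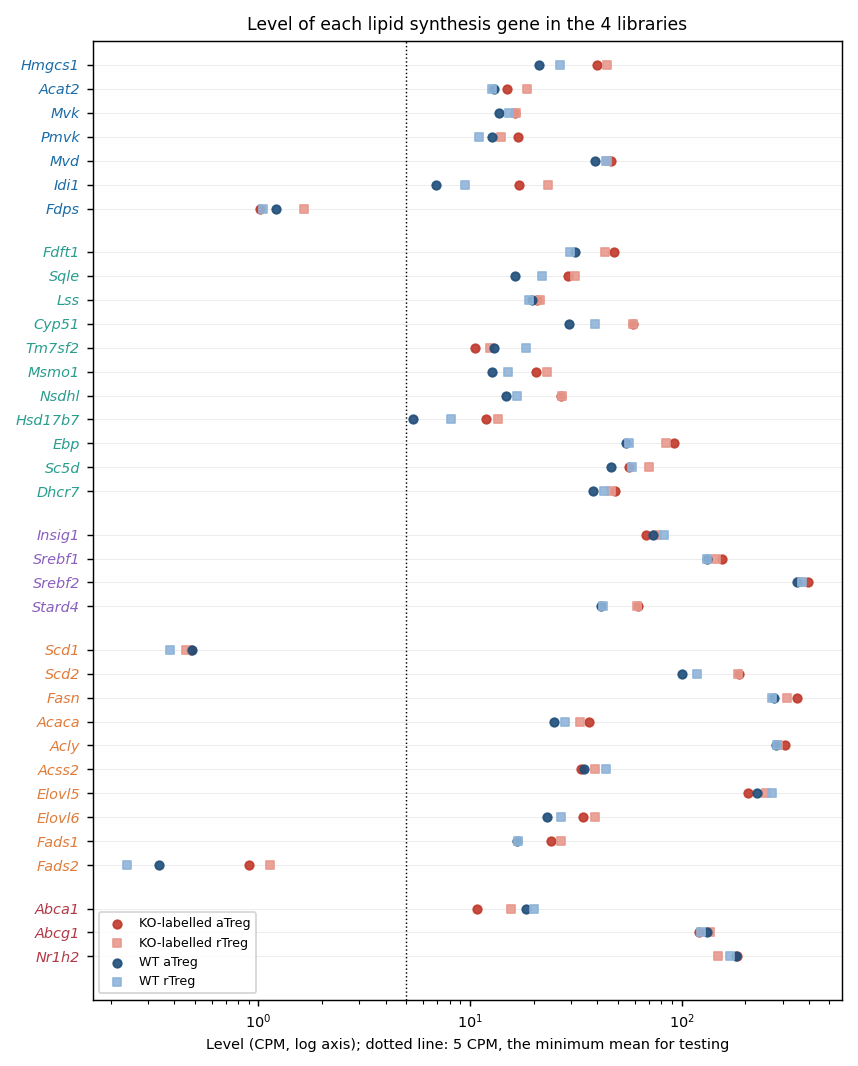
Level of the 35 genes in each library on a log CPM axis, with KO-labelled libraries in red shades, WT libraries in blue shades, circles for aTreg and squares for rTreg. The red points of Idi1, Hmgcs1, Cyp51, Ebp, Stard4 and Scd2 lie to the right of the blue points, and Fdps, Scd1 and Fads2 lie left of the dotted line at 5 CPM.

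In the authors' deposited table, which compares the genotypes and gives log2 fold changes as WT over KO, 13 of the 35 genes have an adjusted p under 0.05, all of them higher in the KO-labelled libraries. Scd1 and Fads2 have no adjusted p in the authors' deposited table. Over all genes, 1192 of the 12398 with an adjusted p in the authors' deposited table pass that threshold with the KO-labelled libraries higher and 868 with WT higher. In the authors' deposited table Idi1 has −1.30 (adjusted p = 2.25e-04), Scd2 −0.77 (adjusted p = 6.03e-06) and Ebp −0.67 (adjusted p = 1.16e-04). The table comes from the same 4 libraries and is no independent check.

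The genotype ratios of some genes were unlike in aTreg and rTreg by more than counting error, a difference that 1 library per group does not allow to be tested. For Cyp51 the log2 ratio in aTreg minus that in rTreg was 0.40 [0.21 to 0.60], where the interval covers counting error only. For Sqle it was 0.31 [0.043 to 0.57] and for Scd2 0.26 [0.15 to 0.37], so that these ratios were larger in aTreg. For Srebf2 it was 0.22 [0.15 to 0.28] and for Fasn 0.14 [0.064 to 0.21]. For Abca1 it was −0.40 [−0.73 to −0.067], the fall being deeper in aTreg. Intervals also lay above 0 for Mvd, Dhcr7, Ebp, Acaca, Acly and Nr1h2. They lay below 0 for Abcg1 and for Acat2, at −0.35 [−0.68 to −0.014], whose ratio was larger in rTreg. The share of all tested genes with such intervals was not counted. Idi1, at 0.0073 [−0.37 to 0.38], and Stard4, at 0.041 [−0.14 to 0.22], had nearly equal ratios in both states.

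The second comparison asks how aTreg differed from rTreg. Few lipid synthesis genes passed the test between states. Those that did were lower in aTreg, in a number near the share of all tested genes that fell. EdgeR's additive test, with genotype as a term, called no gene higher and 2, Sc5d and Elovl5, lower, where 7.91% of all tested genes rose and 5.44% fell. At an unadjusted p under 0.05 it had 1 gene higher, Nr1h2, and 8 lower. The share of all tested genes at that unadjusted threshold was not counted, so these numbers have nothing to be measured against. DESeq2 called none either way. Sc5d was at 56.4 CPM in KO-labelled aTreg, against 70.1 CPM in KO-labelled rTreg, and at 46.4 CPM in WT aTreg, against 58.1 CPM in WT rTreg. In each genotype aTreg was the lower, and Sc5d fell (log2 change −0.32, SE 0.0751, edgeR adjusted p = 0.0136). Elovl5 was at 206 CPM in KO-labelled aTreg, against 250 CPM in KO-labelled rTreg, and at 227 CPM in WT aTreg, against 267 CPM in WT rTreg. It also fell (log2 change −0.26, SE 0.0659, edgeR adjusted p = 0.0197), and both aTreg libraries lay below both rTreg libraries.

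In the KO-labelled pair the aTreg library was below the rTreg library for 18 of the 32 genes, with a median log2 ratio of −0.041, and in WT for 25, with a median of −0.17. Over all tested genes the median was 0.0041 in the KO-labelled pair and 0.0010 in WT. No lipid gene was at least 1.5-fold higher in aTreg in the KO-labelled pair (3.06% of all tested genes) or in WT (4.49%). At least 1.5-fold lower was none in the KO-labelled pair (1.48% of all tested genes) and 1, Hsd17b7, in WT (3%). Hsd17b7 had an aTreg over rTreg ratio of −0.19 [−0.46 to 0.078] in the KO-labelled pair and −0.59 [−0.95 to −0.24] in WT. Idi1 had −0.45 [−0.66 to −0.23] in the KO-labelled pair and −0.45 [−0.78 to −0.14] in WT, with no call for state (edgeR adjusted p = 0.0672). Cyp51 had 0.0020 [−0.12 to 0.13] in the KO-labelled pair and −0.40 [−0.56 to −0.25] in WT and Sqle −0.11 [−0.29 to 0.059] in the KO-labelled pair and −0.42 [−0.63 to −0.22] in WT, lower in WT aTreg and with intervals that include 0 in the KO-labelled pair. Abca1 had −0.52 [−0.79 to −0.26] in the KO-labelled pair and −0.12 [−0.33 to 0.080] in WT, and none of these 3 was called for state (edgeR adjusted p = 0.263 for Cyp51, 0.186 for Sqle and 0.209 for Abca1). The 15 cell cycle genes had medians of −0.12 in the KO-labelled pair and −0.74 in WT in the same contrast.

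**Figure D4:**
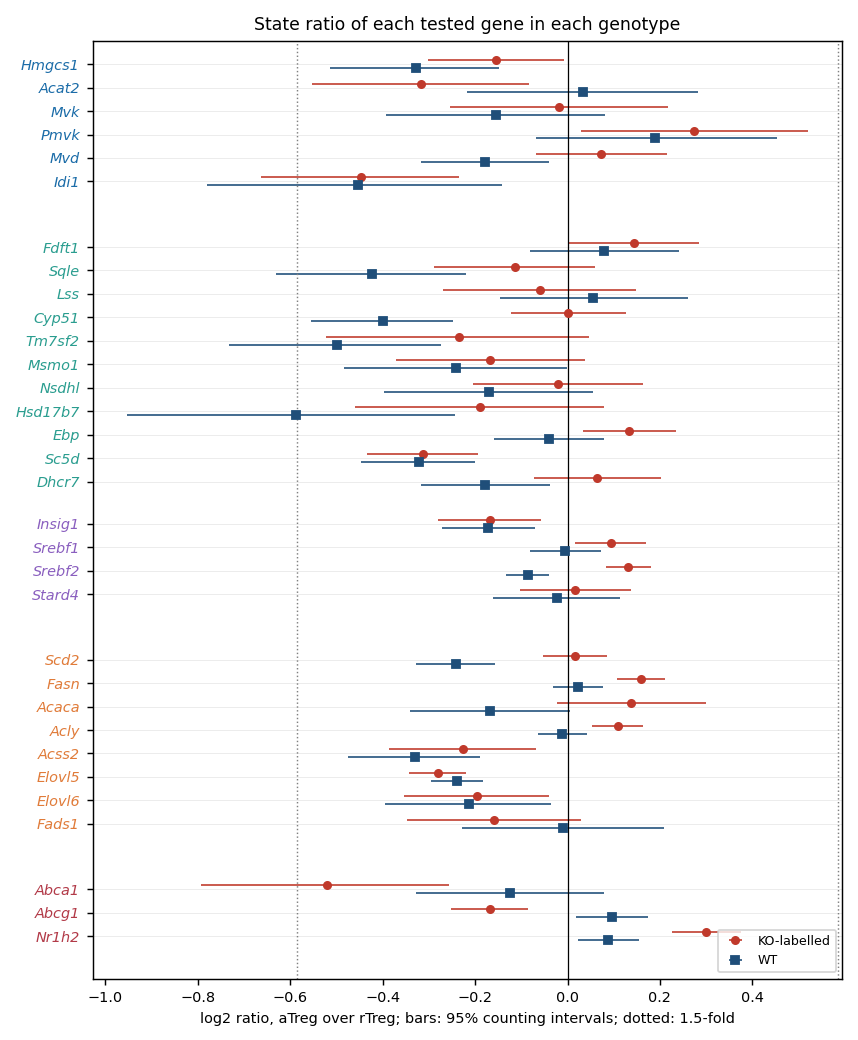
Log2 ratio of aTreg over rTreg for the 32 tested genes in the KO-labelled pair (circles) and in WT (squares), with 95% counting intervals and dotted lines at 1.5-fold. Most WT squares lie left of 0, the farthest at −0.59 for Hsd17b7, while the KO-labelled circles lie on both sides.

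Levels of different genes were compared per length, as CPM per kilobase of the union of exons in GENCODE M21, as means over the 4 libraries. Elovl5 was highest at 67.4 CPM per kilobase, followed by Acly at 54.5, Srebf2 at 51.5 and Nr1h2 at 50.7. None of these 4 was called for genotype. Ebp, at 31.1 CPM per kilobase, was the highest of the sterol enzymes, followed by Sc5d at 11.9 and Cyp51 at 10.5, and Mvd, at 23.4, was the highest of the mevalonate genes. Hsd17b7 at 1.91 and Lss at 1.87 CPM per kilobase were the lowest tested genes of the sterol branch, and Idi1 at 4.05 the lowest of the tested mevalonate genes. The untested Fdps lay at 0.292 CPM per kilobase. Srebf2 exceeded Srebf1 (24.98 CPM per kilobase) and Abcg1 (17.5) exceeded Abca1 (1.56) in each of the 4 libraries. The union of exons can exceed the transcripts in use, so that these values can understate genes with many isoforms.

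Other genes of the same routes came from lists without the 35 genes, and their counts stand beside the 24.4% of all tested genes that rose and the 22.8% that fell. Of 11 SREBP processing genes, 2 rose and 3 fell, which is near those shares. Mbtps1, a protease that cuts SREBP, and Scap fell, with ratios of −0.23 in aTreg and −0.24 in rTreg (edgeR adjusted p = 0.0101) and −0.15 in aTreg and −0.22 in rTreg (edgeR adjusted p = 0.03299), the pair being chosen after their values were seen. Erlin2, a membrane protein of the endoplasmic reticulum linked to sterol-regulated degradation, fell, with ratios of −0.41 in aTreg and −0.29 in rTreg (edgeR adjusted p = 0.0249). Ubxn8, an adaptor of the degradation machinery, rose, with ratios of 0.45 in aTreg and 0.24 in rTreg (edgeR adjusted p = 0.02601). Vcp, the ATPase of that machinery, rose, with ratios of 0.23 in aTreg and 0.34 in rTreg (edgeR adjusted p = 0.00392). None of these 5 was called with genotype alone, where the edgeR adjusted p ran from 0.0893 to 0.317.

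Of 12 tested genes of sterol handling, 1, Rxra, rose and 3, Mylip, Rxrb and Nceh1, fell, the falls being near the share of all tested genes that fell. Mylip, a ubiquitin ligase known as an LXR target, was at 33.4 and 37.1 CPM in KO-labelled aTreg and rTreg, against 49.1 and 46.9 CPM in WT aTreg and rTreg and fell (log2 change −0.45, SE 0.0945, edgeR adjusted p = 0.00178). Abca1 also fell in the additive test, a call lost with DESeq2 and with genotype alone. Abcg1, which LXR also switches on, was not called (edgeR adjusted p = 0.864). No full list of LXR targets was examined, and LXR activity was not tested. Rxrb and Rxra, the partners of LXR, moved in opposite directions, Rxrb falling (log2 change −0.52, SE 0.0662, edgeR adjusted p = 3.92e-05) and Rxra rising (log2 change 0.45, SE 0.0757, edgeR adjusted p = 3.81e-04; edgeR adjusted p = 0.1601 with genotype alone). Of 10 tested genes of the isoprenoid branch, which draws on farnesyl diphosphate, 2 rose and 1 fell, at or below those shares. Ggps1, which makes geranylgeranyl diphosphate, rose with ratios of 0.24 in aTreg and 0.33 in rTreg (edgeR adjusted p = 0.0321). Pggt1b, which attaches that group to proteins, rose with 0.29 in aTreg and 0.20 in rTreg (edgeR adjusted p = 0.0383). Coq2, of ubiquinone synthesis, fell with −0.56 in aTreg and −0.11 in rTreg (edgeR adjusted p = 0.0276). These 3 were not called with genotype alone, where the edgeR adjusted p ran from 0.172 to 0.195. Of 14 tested genes of fatty acid elongation and activation, 6 rose and none fell, with a median log2 ratio of 0.37 in aTreg and 0.29 in rTreg, and with genotype alone 4 rose. Fabp5, a fatty acid binding protein, was at 27.9 and 21.4 CPM in KO-labelled aTreg and rTreg, against 13.99 and 14.9 CPM in WT aTreg and rTreg and rose (log2 change 0.76, SE 0.143, edgeR adjusted p = 7.65e-04). Mid1ip1, an activator of acetyl-CoA carboxylase, was at 18.3 and 14.5 CPM in KO-labelled aTreg and rTreg, against 10.6 and 8.1 CPM in WT aTreg and rTreg and rose (log2 change 0.81, SE 0.156, edgeR adjusted p = 9.04e-04; edgeR adjusted p = 0.0585 with genotype alone). Elovl1, which lengthens very long chains, was at 104 and 83.5 CPM in KO-labelled aTreg and rTreg, against 63.1 and 58.8 CPM in WT aTreg and rTreg and rose (log2 change 0.62, SE 0.0746, edgeR adjusted p = 2.58e-05).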

How the data were processed

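TRIzol extracts went into SMARTer libraries, per the labels' protocols. The submitters' processing notes name HISAT2 2.2.1, featureCounts 2.0.1 and the build GRCm38; annotation and strand use were not given in the sources, so overlapping genes on opposite strands cannot be separated. The authors deposited whole read counts, not normalized. Their second table gives, per the file headers, variance-stabilised log2 values, a mean of scaled counts (a signal that is never negative), a log2 fold change of WT over KO with its error, their ratio as a score, and p-values with adjusted p-values; the deposited model is not stated.

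Here a gene needed a mean of 5 CPM or more, before scaling, to be kept (9680 genes, 99.31% of counts). Libraries were then scaled by TMM, and the kept genes were tested with edgeR 4.0.16 (R 4.3.3) quasi-likelihood on counts. The fit had additive terms for state and genotype, and calls were made at a Benjamini-Hochberg adjusted p of 0.05 across all tested genes. The fit leaves 1 residual degree of freedom beside 11.8 borrowed from other genes; standard errors are the log2 change divided by the root of the F statistic. Contrasts of 2 libraries are log2 ratios with a prior count of 2, with exact binomial 95% intervals, and for untested genes ratios without a prior count. Intervals for differences of ratios use the counting variance of log counts. Intervals and limits cover counting error only, since PCR copies are not independent molecules. The fit was checked on simulated data with a common spread for all genes and the same genotype change in both states. That check does not cover genes whose genotype ratio differs between states. Alternatives were DESeq2 1.42.0, 3 scalings, another prior count, other filters, 1-term fits and a fold of 2.

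The members and lists were chosen with earlier results of these data known. All members are accounted for; from each other list the text names the 3 tested genes with the largest mean genotype ratio, and for the other genes named from those lists and the genes that share sequence the choice was made after values were seen. Positions come from GENCODE M21, which shares the build of the files, and promoters from RefSeq. No protein sequence was used here, so the planned comparison of paralog proteins was not made.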

Additional observations from a re-analysis of the deposited data

Results flagged for a closer look

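Abcg1 was the only one of the 35 genes whose log2 ratio of KO-labelled over WT lay on opposite sides of 0 in the 2 states with both counting intervals off 0. It was −0.11 [−0.20 to −0.033] in aTreg and 0.15 [0.069 to 0.23] in rTreg, from 2277 and 2402 counts in KO-labelled aTreg and rTreg, against 2705 and 2580 counts in WT aTreg and rTreg. The difference between the ratios was −0.26 [−0.38 to −0.15], with an interval for counting error only, and with 1 library per group the difference between states was not tested.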

How the results depend on the processing

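No paired analysis was possible because the labels carry no replicate numbers and each group holds 1 library, so that no replicate block could be added to the fit. No library could be left out of that fit, since 3 libraries would leave no residual degree of freedom for 3 coefficients. Of the 19 genes called for genotype, none changed direction under any alternative. With genotype alone the rises numbered 11, and the falls 0 (1 at an unadjusted p under 0.05); the falls were also 0 with DESeq2 (1 at an unadjusted p under 0.05) and in the authors' deposited table. The calls lost were 8 with genotype alone, 5 with DESeq2, 6 in the deposited table and 1, Srebf1, with upper-quartile scaling, while leaving out the level filter added 4 rises, Acat2, Pmvk, Dhcr7 and the otherwise untested Fads2. Genes called lower in aTreg numbered 0 with DESeq2 (2 at an unadjusted p under 0.05) and 0 with state alone in edgeR (also 0 unadjusted). At 2-fold instead of 1.5-fold, the genes higher in the KO-labelled library numbered 2 in aTreg and 1 in rTreg, those lower 0 in aTreg, and those lower in WT aTreg than in WT rTreg 0. With upper-quartile scaling 1 gene, Tm7sf2, was at least 1.5-fold lower in KO-labelled rTreg. Other scalings moved a log2 ratio by at most 0.052 and a prior count of 0.5 by at most 0.011. Low counts limit Fdps, Scd1 and Fads2, and shared sequence makes the level of Fdps uncertain as well. A count of 0 would allow up to 0.144 to 0.171 CPM in these libraries, but none of these genes had a count of 0.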

Other observations

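Fat burning and fat storage genes lie beside the synthesis routes, and their counts of calls stand beside 24.4% of all tested genes that rose and 22.8% that fell. Of 12 fatty acid oxidation genes, 5, Acadl, Etfdh, Cpt2, Hadha and Acaa2, rose and 1, Acadvl, fell in the KO-labelled libraries, with a median log2 ratio of 0.11 in aTreg and 0.15 in rTreg. With genotype alone edgeR called Acadl and Etfdh among these 6. Acadl, a mitochondrial acyl-CoA dehydrogenase, was at 63.7 and 59.7 CPM in KO-labelled aTreg and rTreg, against 35.1 and 35.5 CPM in WT aTreg and rTreg, and rose 1.75-fold (log2 change 0.81, SE 0.0843, edgeR adjusted p = 8.07e-06). Etfdh, which passes its electrons to the respiratory chain, rose (log2 change 0.44, SE 0.0952, edgeR adjusted p = 0.00219), and so did Cpt2, which rebuilds acyl-CoA in the mitochondrion (log2 change 0.42, SE 0.165, edgeR adjusted p = 0.0497; edgeR adjusted p = 0.147 with genotype alone). Cpt1a, the entry gate of the route, had ratios of 0.076 in aTreg and −0.12 in rTreg and was not called (edgeR adjusted p = 0.841).

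Of 13 tested genes of glycerolipid synthesis and storage, 5, Dgat2, Pnpla2, Dgat1, Lpin2 and Agpat5, rose and 3, Chka, Cds2 and Pcyt2, fell, with a median log2 ratio of −0.0098 in aTreg and 0.016 in rTreg. With genotype alone edgeR called Dgat2, Pnpla2 and Cds2 among these 8. Dgat2, which makes triglyceride, was at 10.2 and 7.72 CPM in KO-labelled aTreg and rTreg, against 4.23 and 3.34 CPM in WT aTreg and rTreg, and rose 2.37-fold (log2 change 1.24, SE 0.216, edgeR adjusted p = 4.50e-04). Pnpla2, the lipase that opens triglyceride stores, was at 127 and 111 CPM in KO-labelled aTreg and rTreg, against 77.5 and 69.7 CPM in WT aTreg and rTreg, and rose 1.62-fold (log2 change 0.70, SE 0.0662, edgeR adjusted p = 3.92e-06). Chka, choline kinase, the first step of phosphatidylcholine synthesis, was at 20.1 and 27.1 CPM in KO-labelled aTreg and rTreg, against 36.1 and 35.02 CPM in WT aTreg and rTreg, and fell (log2 change −0.60, SE 0.124, edgeR adjusted p = 0.00148; edgeR adjusted p = 0.0678 with genotype alone).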
